A study of Mus musculus with 12 samples.

Results

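The Iroquois homeobox genes Irx1 to Irx6 lie in 2 clusters of the mouse genome, and the H3K27me3 islands over both clusters are described here in 4 populations of intestinal epithelial cells. H3K27me3, a histone H3 that carries 3 methyl groups on lysine 27, was mapped by chromatin immunoprecipitation and sequencing (ChIP-seq), and an island is a stretch of enriched reads as called by SICER. The islands were chosen by position on mm9, as those that overlap chr8:94280001-95220000, which holds Irx3 near 94.32 Mb, Irx5 near 94.88 Mb and Irx6 near 95.2 Mb, or chr13:72080001-73420000, which holds Irx1 near 72.1 Mb, Irx2 near 72.8 Mb and Irx4 near 73.4 Mb. Of 81097 islands in 8 libraries, 296 met this rule, 133 on chromosome 8 and 163 on chromosome 13, and all of them were used. Islands lay within 50 kb of the position given for each of the 6 genes in at least 6 libraries; overlap with exons or promoters was not computed.

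Epithelial cells of the small intestine of mice of a mixed C57BL/6 CD1 strain were sorted by flow cytometry, with cells that stained for CD31, CD45 or DAPI gated out. The embryonic cells were the EpCAM+ epithelium at E12.5 and at E14.5 (E, embryonic day), and the adult cells, from Lgr5EGFP-Cre-ERT males at postnatal day 60, were intestinal stem cells (ISC), taken as Lgr5-EGFPhigh, and enterocytes (AE), taken as EpCAM+. Each population gave 2 ChIP libraries with a Millipore antibody against H3K27me3, described by the submitters as biological duplicates, and 1 input. Interval lists of a chromatin mark hold no expression marker, so the identity of the sorted cells was not checked here. The stem cell gate rests on the Lgr5 reporter of that line, no enterocyte marker beyond EpCAM is named for the AE sort, and whether a library pooled several animals is not given in the sources used here.

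Iroquois proteins are transcription factors of the TALE homeobox class, and the mouse carries them as a pair of paralogous clusters of 3 genes. In each cluster wide gene deserts with regulatory sequence separate the genes, and the family is known for patterning neural, heart, limb and lung tissue. Polycomb repressive complex 2 places H3K27me3 over silent developmental regulators, often in broad domains that begin at CpG-rich promoters.

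The RefSeq promoters of Irx3, Irx2 and Irx4 are printed to show the CpG content at the start of genes with islands within 50 kb in all 8 libraries. They are the 3 of the 6 genes found in the promoter table, which gives GRCm38.p6 coordinates; these are of another build than the mm9 islands and were not converted. Each runs 5′ to 3′ on the strand of the gene, from 250 bases before to 50 bases after the start, and capitals mark each CG dinucleotide.
Irx3 promoter, chr8:91801605-91801904, minus strand: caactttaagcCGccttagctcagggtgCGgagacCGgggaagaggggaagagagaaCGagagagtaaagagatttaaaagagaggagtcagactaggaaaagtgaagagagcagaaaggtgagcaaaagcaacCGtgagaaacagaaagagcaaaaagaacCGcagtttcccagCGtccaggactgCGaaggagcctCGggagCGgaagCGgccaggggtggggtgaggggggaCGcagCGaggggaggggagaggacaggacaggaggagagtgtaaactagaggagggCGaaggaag
Irx2 promoter, chr13:72628570-72628869, plus strand: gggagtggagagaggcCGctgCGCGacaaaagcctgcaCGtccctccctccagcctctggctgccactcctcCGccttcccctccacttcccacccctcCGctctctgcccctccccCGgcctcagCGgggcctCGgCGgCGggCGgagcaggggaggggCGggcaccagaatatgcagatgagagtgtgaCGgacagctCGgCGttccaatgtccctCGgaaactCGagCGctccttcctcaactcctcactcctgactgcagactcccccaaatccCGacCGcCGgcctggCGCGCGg
Irx4 promoter, chr13:73260247-73260546, plus strand: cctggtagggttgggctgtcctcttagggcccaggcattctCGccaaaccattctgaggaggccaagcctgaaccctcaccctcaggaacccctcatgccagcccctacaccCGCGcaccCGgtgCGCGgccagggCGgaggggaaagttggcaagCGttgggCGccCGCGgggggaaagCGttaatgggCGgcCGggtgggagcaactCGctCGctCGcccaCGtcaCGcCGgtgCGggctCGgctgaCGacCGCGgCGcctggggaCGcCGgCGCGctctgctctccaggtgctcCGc
The promoter of Irx4 held 31 CG dinucleotides and that of Irx2 held 25, against a median of 7 over all 32851 promoters of the table. The promoter of Irx3 held 14. As many CG dinucleotides were present in 10.6% of all promoters for Irx4, in 18.4% for Irx2 and in 36.3% for Irx3. The same RefSeq annotation places no protein-coding gene between neighbours of either cluster. It lists 7 long noncoding RNAs between Irx3 and Irx5, 0 between Irx5 and Irx6, 2 between Irx1 and Irx2 and 5 between Irx2 and Irx4.

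The lists differ in extent, and this bears on every length below. The 8 lists held 6171 to 17407 islands and covered 60.8 to 241 Mb of the genome, and the ISC replicate 1 list stood apart with 17407 islands over 241 Mb, against 60.8 Mb in ISC replicate 2. The ChIP reads inside islands numbered 1171968 to 6627853 per library; reads outside islands are not listed, so the depth of a whole library is unknown and no count test between libraries was possible. The depth of replicate 1 over that of replicate 2 was 0.928 at E12.5, 1.63 at E14.5, 1.09 for stem cells and 1.68 for enterocytes. Lengths are therefore also given at equal covered length, for which islands of each list were taken by rising false discovery rate (FDR) until the length of the shortest list was reached. E12.5 replicate 1 had the fewest islands, the fewest ChIP reads in islands and the lowest median fold, 1.38. Islands of an FDR of 1e-10 or less covered 9.08 Mb in its list, against 18.4 to 134 Mb in the others. A stretch outside the islands of a list may still have carried the mark at a lower level.

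Both clusters lay inside islands to a larger share of their length than the genome as a whole in each of the 8 libraries. On chromosome 8, where the region spans 940 kb, islands covered 70.0 and 130.0 kb in E12.5, 178.4 and 282.8 kb in E14.5, 505.6 and 126.2 kb in ISC and 86.6 and 119.8 kb in AE. ISC replicate 1 held the most and E12.5 replicate 1 the least, and the ISC replicates were farther apart than any other pair. On chromosome 13, where the region spans 1340 kb, islands covered 89.8 and 118.2 kb in E12.5, 328.4 and 423.0 kb in E14.5, 439.8 and 154.6 kb in ISC and 177.6 and 149.6 kb in AE. Here both E12.5 libraries lay below all 6 others. Divided by the share of the genome inside islands in the same library, the share of the chromosome 8 cluster was 3.14 and 4.80 times the genome in E12.5, 6.60 and 7.28 times in E14.5, 5.88 and 5.83 times in ISC, with 3.04 and 3.70 times in AE. On that scale the ISC replicates were close. The share of the chromosome 13 cluster was 2.83 and 3.06 times the genome in E12.5, 8.52 and 7.64 times in E14.5, 3.59 and 5.01 times in ISC, with 4.37 and 3.24 times in AE.

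**Figure D1:**
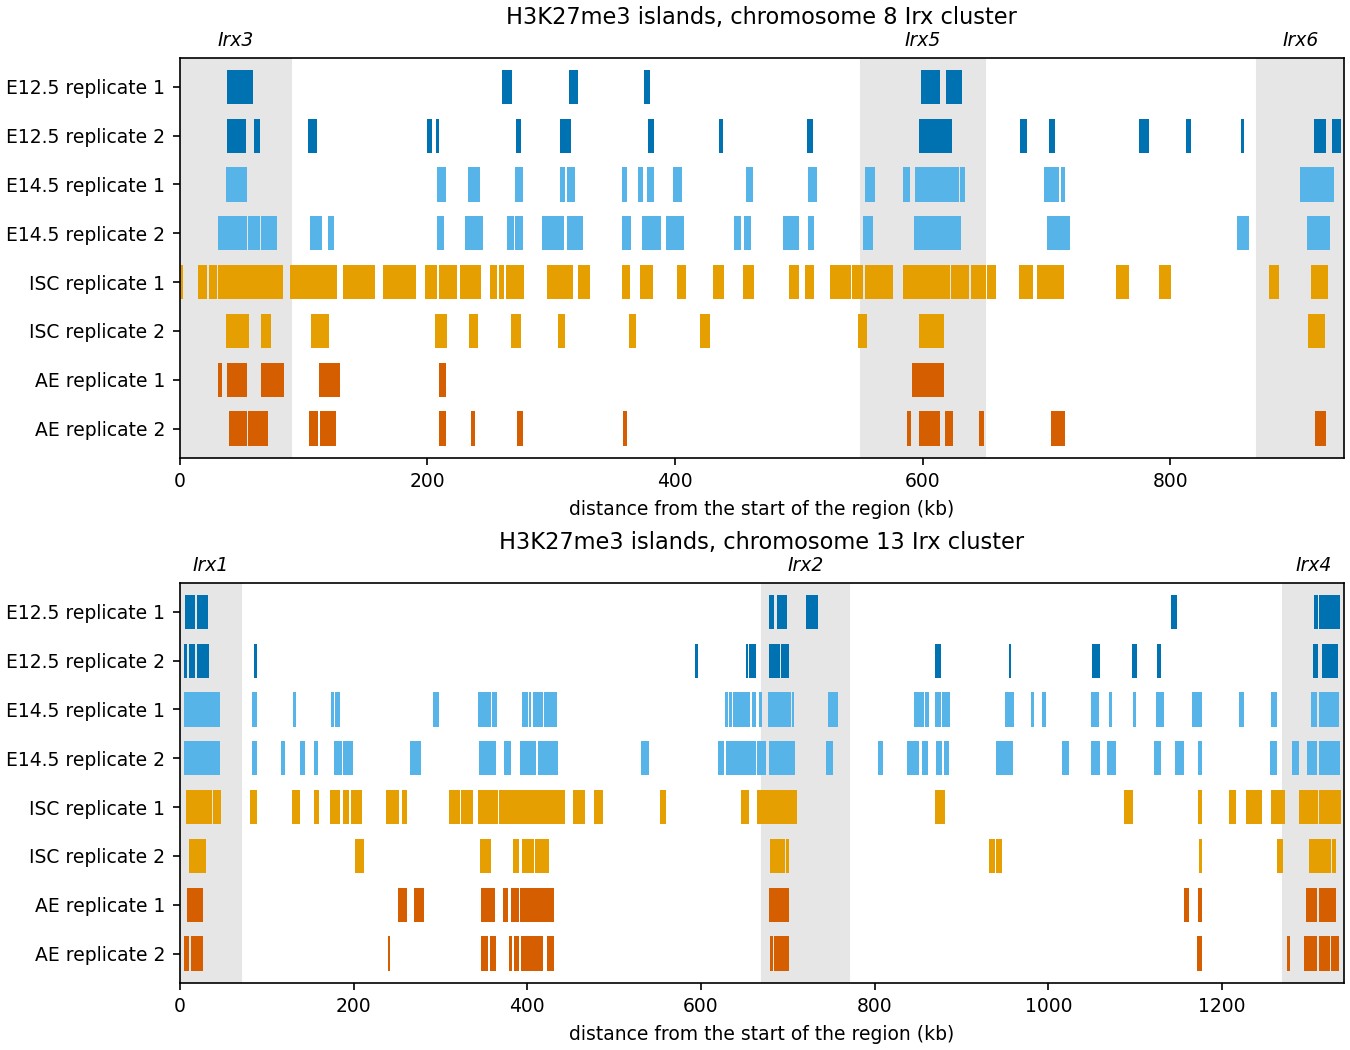
H3K27me3 islands over the chromosome 8 cluster (top) and the chromosome 13 cluster (bottom), drawn as bars on distance from the start of the region in kb, with 1 row per library and grey bands for the gene windows. Each row holds bars over the Irx3, Irx5, Irx1, Irx2 and Irx4 windows, the Irx6 window is empty in E12.5 replicate 1 and AE replicate 1, and the part of the Irx1 to Irx2 space filled from E14.5 on is empty in both E12.5 rows.

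Since no mm9 annotation was at hand, a gene was taken as its stated position with 50 kb to either side, cut at the border of the region, and the space between such windows as the desert. An island was called in all 8 libraries over 5 of the 6 gene windows, all but that of Irx6; 11.7% of the 100 kb windows of the genome with an island in any library had one in all 8. For each gene the stretch shared by most libraries, and the island over it in each list, is described next. Folds are the authors' own ChIP over control ratios, scaled for the sizes of both libraries, and describe islands within a list.

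Irx3, known in the mouse for roles in neural and limb patterning, was covered in all 8 libraries over chr8:94319601-94333600, a stretch of 14.0 kb that contains the position given for the gene. The island over it was 21.0 and 15.8 kb long in E12.5, 16.8 and 23.2 kb in E14.5, 51.8 and 18.6 kb in ISC and 16.6 and 14.6 kb in AE. Its left border fell between 94311001 and 94319601 across the 8 lists, while its right border reached 94363000 in ISC replicate 1 and 94333600 in E12.5 replicate 2. The fold was 1.63 and 3.66 in E12.5, 3.21 and 3.66 in E14.5, 2.48 and 1.90 in ISC, with 1.70 and 2.15 in AE. The E12.5 replicates spanned nearly the whole range, so no population stood apart from all others by fold. Both E14.5 folds were above all ISC and AE folds, which come from other lists and so do not compare levels of the mark. Read counts in the island were 469 ChIP against 495 control reads in E12.5 replicate 1 and 856 against 373 in E12.5 replicate 2. In AE replicate 1 a further island of 18.4 kb in the window, with a fold of 1.14, was longer than the shared one.

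Irx5, a paralogue of Irx3 with known roles in the heart and retina, had the longest shared stretch of the 6 genes, 15.8 kb at chr8:94878201-94894000. The island over it was 16 and 27.4 kb long in E12.5, 35.4 and 38.2 kb in E14.5, 38.0 and 20.0 kb in ISC and 25.8 and 17.2 kb in AE. It was longer in both E14.5 libraries than in either E12.5 or either AE library. The fold was 1.89 and 3.41 in E12.5, 2.63 and 3.67 in E14.5, 3.42 and 1.85 in ISC, with 1.98 and 2.27 in AE. The Irx5 island lay at or above the 89.6th percentile of fold within each of the 8 lists, the highest such minimum among the 6 genes. It held 369 ChIP and 336 control reads in E12.5 replicate 1 and 2046 ChIP and 835 control reads in E14.5 replicate 1, ratios of 1.1 and 2.45 before scaling by library size.

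Irx6, known from bipolar cells of the retina, was the gene with the fewest calls. Islands covered chr8:95196801-95204800, 8.0 kb, in 6 libraries, and E12.5 replicate 1 and AE replicate 1 had no island anywhere in its window. The island was 10.0 kb long in E12.5 replicate 2, 26.8 and 18.4 kb in E14.5, 14.0 and 13.8 kb in ISC and 9.0 kb in AE replicate 2. The fold was 2.71 in E12.5 replicate 2, 1.77 and 3.09 in E14.5, 1.97 and 1.41 in ISC and 1.23 in AE replicate 2. The AE replicate 2 island stood at percentile 3.91 of its list by fold, with 241 ChIP and 226 control reads and an FDR of 0.0031, close to the limit of 0.01 that all listed islands meet. In the 2 libraries without an island a level just under that limit was not detectable from the lists.

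Irx1, expressed in developing lung and limb, was covered in all 8 libraries over chr13:72099201-72107200, 8.0 kb. The island over it was 12.8 and 14.4 kb long in E12.5, 41.4 and 42.0 kb in E14.5, 30.2 and 19.6 kb in ISC and 18.6 and 14.8 kb in AE. The E14.5 islands were the longest and were nearly the same interval in both replicates, from 72084401 in each to 72125800 and 72126400. The island began at 72099201 in both E12.5 lists, where a separate island to its left ended at 72098000 in replicate 1 and at 72097800 in replicate 2. The calls were thus split there, and the whole window held 24.6 and 25.2 kb of islands in E12.5. Whether the gap between these islands carried the mark at a lower level is not known from the lists. In both AE lists the island ended at 72107200. The fold was 1.38 and 2.69 in E12.5, 2.75 and 3.81 in E14.5, 2.59 and 1.73 in ISC, with 1.35 and 1.71 in AE.

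Irx2, which is co-expressed with Irx1 in many embryonic tissues, had the shortest shared stretch, 4.8 kb at chr13:72771801-72776600. It lies to the left of the rounded position given for the gene, 72.8 Mb, which no island of the 8 lists covered. The island over it was 12 and 9.6 kb long in E12.5, 26.6 and 29.8 kb in E14.5, 46.6 and 17.4 kb in ISC and 23.2 and 16.8 kb in AE, and both E12.5 islands were shorter than all 6 others. In E12.5 another island of the window was longer, at 13.4 kb in replicate 1 and 12.8 kb in replicate 2. That of replicate 1, chr13:72801001-72814400, had a fold of 1.31 and lay to the right of the position given. In both E12.5 lists a separate island lay to the left, ending at 72763800 in replicate 1 and at 72770600 in replicate 2. The calls were thus split there, and the level of the mark between these islands is not known from the lists. The fold was 1.82 and 2.76 in E12.5, 3.33 and 4.41 in E14.5, 2.86 and 2.22 in ISC, with 1.75 and 1.97 in AE. The value of 4.41 was the highest fold of any island in either cluster.

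Irx4, a regulator of ventricular identity in the heart, was covered in all 8 libraries over chr13:73394401-73404000, 9.6 kb. The island over it was 23.6 and 19.2 kb long in E12.5, 22.6 and 23.2 kb in E14.5, 25.0 and 24.6 kb in ISC and 19.6 and 12.2 kb in AE, the narrowest range of lengths among the 5 genes called in all libraries. Its left border lay between 73391801 and 73394401 in 7 lists and at 73380401 in ISC replicate 2. The fold was 1.49 and 3.83 in E12.5, 2.71 and 3.67 in E14.5, 2.85 and 1.36 in ISC, with 1.47 and 1.65 in AE. Over the 6 genes there were 46 such islands, and 42 of them had a fold above the median of their own list. Each was picked as the longest island over the stretch that most libraries covered. No share was computed for islands picked alike elsewhere in the genome, so the count is a description. Over all islands that touched a gene window, the median fold in AE replicate 1 was 1.431, below its list median of 1.441. In each other library it was above the list median.

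**Figure D2:**
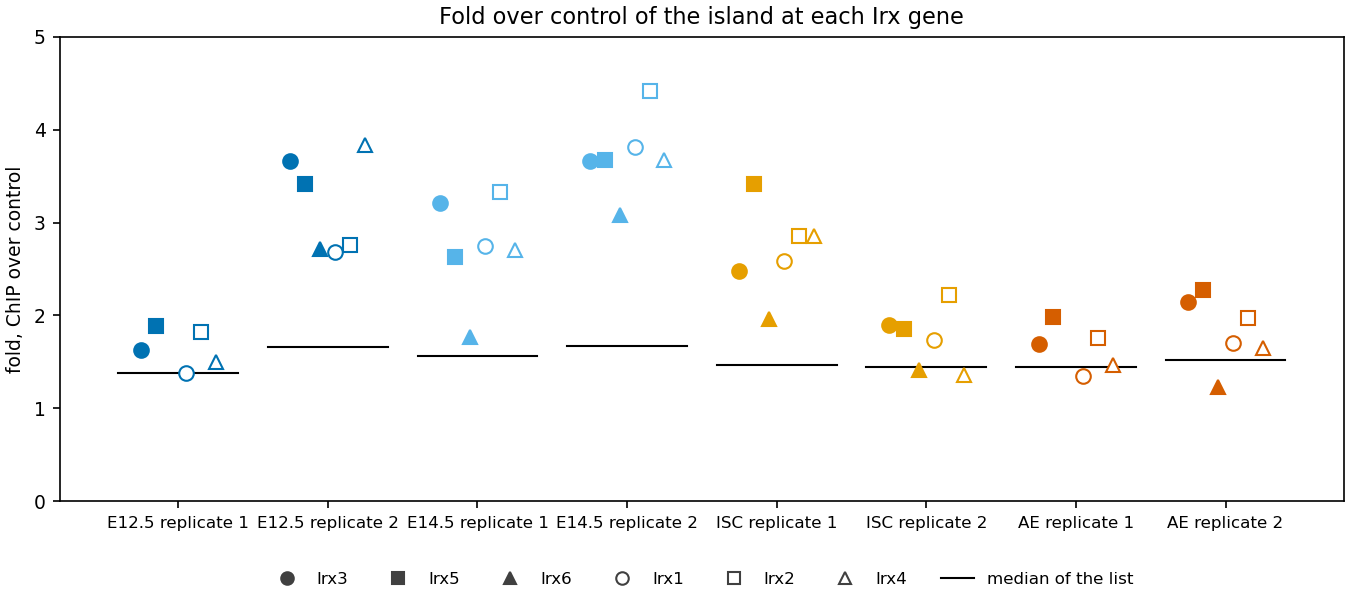
The authors' fold of ChIP over control reads for the island at each of the 6 Irx genes, with libraries along the x axis, 1 symbol per gene and a black line at the median fold of all islands in that list. Of 46 symbols 42 lie above their line, and the highest values, 3.66 to 4.41, belong to E12.5 replicate 2 and E14.5 replicate 2. The islands were picked as the longest over the stretch that most libraries covered, so the count is a description.

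The gene windows were covered to a larger share than the deserts in each of the 8 libraries. Islands covered 26.6% and 27.4% of the 500 kb of gene windows in E12.5, 41.6% and 47.6% in E14.5, 61.4% and 27.3% in ISC, with 27.6% and 30.7% in AE. They covered 1.49% and 6.25% of the 1780 kb of deserts in E12.5, 16.8% and 26.3% in E14.5, 35.9% and 8.10% in ISC, with 7.08% and 6.52% in AE. Outside ISC replicate 1 the gene share thus ran between 26.6% and 47.6%, while the desert share in E12.5 replicate 1 was the lowest and that in E14.5 replicate 2 the highest. Islands at the genes were also longer than those in the deserts, with a median of 9.6 to 18.5 kb at genes and of 4.6 to 10.3 kb in deserts per library. An island that reached into a gene window at all was counted at the gene, which favours long islands there.

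Among the gene windows, that of Irx3 (90 kb) was covered over 21.0 and 20.6 kb in E12.5, 16.8 and 45.0 kb in E14.5, 69 and 26.8 kb in ISC and 38.4 and 30.4 kb in AE. The Irx5 window (100 kb) was covered over 28.8 and 27.4 kb in E12.5, 53.2 and 46.8 kb in E14.5, 87.4 and 25.0 kb in ISC and 25.8 and 31.4 kb in AE. The Irx6 window (70 kb) was covered over 0 and 17.2 kb in E12.5, 26.8 and 18.4 kb in E14.5, 22.2 and 13.8 kb in ISC and 0 and 9.0 kb in AE. Irx3 was thus the only gene of the chromosome 8 cluster whose E14.5 and E12.5 values overlapped. The Irx1 window (70 kb) was covered over 24.6 and 25.2 kb in E12.5, 41.4 and 42.0 kb in E14.5, 38.6 and 19.6 kb in ISC and 18.6 and 20.4 kb in AE. The Irx2 window (100 kb) was covered over 30.4 and 22.4 kb in E12.5, 40.4 and 43.0 kb in E14.5, 41.0 and 21.2 kb in ISC and 23.2 and 20.8 kb in AE. The Irx4 window (70 kb) was covered over 28.4 and 24.2 kb in E12.5, 29.2 and 42.6 kb in E14.5, 49.0 and 30.2 kb in ISC and 32.2 and 41.4 kb in AE. All 3 genes of the chromosome 13 cluster had E14.5 values above both E12.5 values, at Irx4 with 29.2 kb against 28.4 kb for the nearest pair.

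Summed over each kind, island length ran from 26.6 to 638.2 kb in the deserts and from 133.2 to 307.2 kb in the gene windows. The deserts are wider, and as shares these ranges were 1.49% to 35.9% and 26.6% to 61.4%. The Irx1 to Irx2 desert (600 kb) was covered over 0 and 16.8 kb in E12.5, 115.0 and 178.8 kb in E14.5, 243.6 and 59.2 kb in ISC and 93.0 and 61.2 kb in AE. The Irx2 to Irx4 desert (500 kb) was covered over 6.4 and 29.6 kb in E12.5, 102.4 and 116.6 kb in E14.5, 67.6 and 24.4 kb in ISC and 10.6 and 5.8 kb in AE. These neighbouring deserts thus followed different courses: the Irx1 to Irx2 desert held more than both E12.5 values in all 6 later libraries, whereas in the Irx2 to Irx4 desert both AE values were below the E12.5 replicate 2 value and below both E14.5 values. The Irx3 to Irx5 desert (460 kb) was covered over 20.2 and 39.2 kb in E12.5, 65.8 and 143.8 kb in E14.5, 266.0 and 60.6 kb in ISC and 22.4 and 37.0 kb in AE. The Irx5 to Irx6 desert (220 kb) was covered over 0 and 25.6 kb in E12.5, 15.8 and 28.8 kb in E14.5, 61.0 and 0 kb in ISC and 0 and 12 kb in AE, and 3 populations had a replicate at 0. The Irx1 to Irx2 desert held, at equal covered length, 0 and 16.8 kb in E12.5, 105.6 and 106.0 kb in E14.5, 104.4 and 59.2 kb in ISC and 81.6 and 44.4 kb in AE, with both E12.5 libraries still below the 6 others. On the same basis the Irx2 to Irx4 desert held 6.4 and 25.0 kb in E12.5, 69 and 41.6 kb in E14.5, 0 and 24.4 kb in ISC and 10.6 and 0 kb in AE. The Irx3 to Irx5 desert held 20.2 and 32.0 kb in E12.5, 54.8 and 57.6 kb in E14.5, 37.2 and 60.6 kb in ISC and 5.8 and 31.8 kb in AE. Both of these deserts kept E14.5 values above their E12.5 values, at smaller lengths, and the ISC replicate 1 value of the Irx3 to Irx5 desert was below that of ISC replicate 2.

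**Figure D3:**
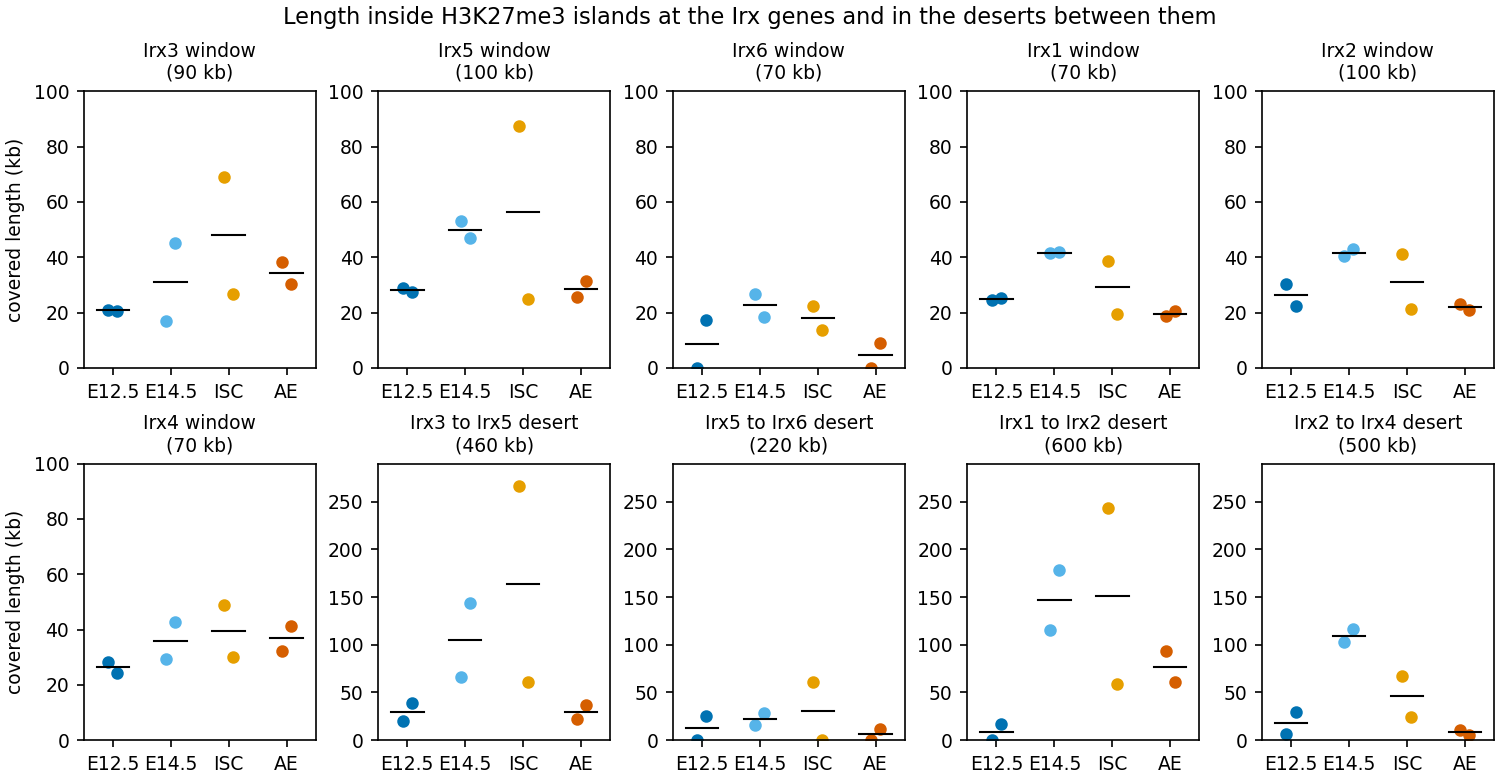
Length inside islands in kb (y axis) at each of the 6 gene windows and 4 deserts, by population from E12.5 to AE (x axis), with 1 point per library and a line at the mean of 2 libraries. Both E14.5 points lie above both E12.5 points in each panel but those of Irx3 and the Irx5 to Irx6 desert. The ISC replicate 1 point lies above its replicate in every panel, farthest in the Irx3 to Irx5 and Irx1 to Irx2 deserts.

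Length covered in all 8 libraries lay at 5 genes and nowhere in the deserts. On chromosome 8 it came to 29.8 kb in 2 stretches, the shared stretches of Irx5 and Irx3 given above. On chromosome 13 it came to 45.0 kb in 10 stretches, of which 13.6 kb lay at Irx1, 13.6 kb at Irx2 and 17.8 kb at Irx4; the longest were those of Irx4 and Irx1 given above and chr13:72092401-72097800 (5.4 kb) at Irx1. Of the length called in any library, 4.87% on chromosome 8 and 6.19% on chromosome 13 was called in all 8, against 2.96% over the genome. By length the Irx5 stretch ranked 108th and the Irx3 stretch 155th among the 1676 such stretches of the genome. The chromosome 13 length was 26.4 kb with islands of an FDR of 1e-10 or less and 13.6 kb with islands of a fold of at least 1.5. Length called in a single library made up 49.0% of the called length on chromosome 8 and 45.9% on chromosome 13, against 54.9% over the genome. The longest of those stretches, chr8:94411601-94437800 and chr8:94444201-94470400 at 26.2 kb each, lay in the Irx3 to Irx5 desert and came from ISC replicate 1.

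Both clusters held more island length at E14.5 than at E12.5. On chromosome 8 islands covered 230.6 ± 73.8 kb at E14.5 and 100 ± 42.4 kb at E12.5 (SD, n = 2 each), a difference of 130.6 kb, and on chromosome 13 they covered 375.7 ± 66.9 kb at E14.5 and 104 ± 20.1 kb at E12.5 (SD, n = 2 each), a difference of 271.7 kb. In both clusters each E14.5 library lay above each E12.5 library. With 2 libraries against 2 an exact permutation test cannot give a p-value below 0.333, so no test was made of this or of the other steps. The differences at equal covered length were 67.7 kb on chromosome 8 and 166.2 kb on chromosome 13, again without overlap. E12.5 replicate 1 had the weakest calls, as given above. Without it the differences were 100.6 kb on chromosome 8 and 257.5 kb on chromosome 13. The depth of E14.5 relative to E12.5 is unknown, and its part in the difference was not tested.

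Both E14.5 libraries exceeded both E12.5 libraries in covered length at 5 of 6 gene windows, against 19.6% of all 100 kb windows, and none was lower in both, against 7.62%; the gene windows are 70 to 100 kb long, so the shares are not of equal windows. When lists were cut to equal covered length, 3 of 6 windows, those of Irx5, Irx6 and Irx1, still met this, against 15.7% of all 100 kb windows. A stretch was counted as gained where both E14.5 libraries and neither E12.5 library covered it. The gained length was 150.8 kb on chromosome 13, or 29.1% of the length called in any of the 4 libraries, and 59.2 kb on chromosome 8, or 16.8%, against 9.56% over the genome. Lost length was 0.4 kb on chromosome 13 (0.0773% of the called length) and 0 kb on chromosome 8, against 1.36% over the genome. That loss rested on requiring both E12.5 libraries: it was 35.4 kb on chromosome 8 without E12.5 replicate 1 and 19.6 kb on chromosome 13 without E12.5 replicate 2. At equal covered length 32.2% was gained on chromosome 13 and 13.1% on chromosome 8, against 7.78% over the genome. Leaving out E14.5 replicate 1, so that 1 E14.5 library sufficed, raised the gained length to 309 kb on chromosome 13 and 165.8 kb on chromosome 8, and leaving out E12.5 replicate 2 raised that on chromosome 8 to 99.0 kb.

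Most of the gained length lay in the deserts, which also make up most of the clusters, at 1780 kb against 500 kb of gene windows. The larger length there thus does not show a concentration in deserts. The Irx1 to Irx2 desert gained 84.0 kb, the Irx2 to Irx4 desert 40.4 kb, the Irx3 to Irx5 desert 32.0 kb and the Irx5 to Irx6 desert 9.2 kb. Among the genes, Irx1 gained 14.2 kb, Irx2 10.2 kb, Irx5 9.2 kb, Irx6 8.4 kb, Irx4 2.0 kb and Irx3 0.4 kb. At equal covered length the Irx1 to Irx2 desert gained 78.2 kb, whereas the Irx2 to Irx4 desert gained 13.6 kb and the Irx3 to Irx5 desert 6.8 kb, so more of the gain in these other deserts was in islands dropped at equal length. The longest gained stretches of chromosome 13 were chr13:72499001-72514600 (15.6 kb), chr13:72717201-72732000 (14.8 kb) and chr13:72424801-72438200 (13.4 kb), all between Irx1 and Irx2. Those of chromosome 8 were chr8:94512801-94522600 (9.8 kb) and chr8:94678201-94685600 (7.4 kb) between Irx3 and Irx5 and chr8:94833601-94840000 (6.4 kb) at the left edge of the Irx5 window. Of these, the stretches at chr13:72499001 and chr13:72424801 were covered at least in part in all 4 adult libraries. Those at chr13:72717201 and chr8:94678201 were covered in part in ISC replicate 1 and not at all in ISC replicate 2 or AE.

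A block of 78.6 kb in the middle of the Irx1 to Irx2 desert, chr13:72426801-72505400, was empty at E12.5 and covered in all later libraries. It was singled out after its values were seen, so its pattern is a description. Islands covered 0 and 0 kb of it in E12.5, 44.2 and 56.8 kb in E14.5, 77.2 and 48.0 kb in ISC and 65.0 and 53.2 kb in AE. The values at equal covered length were 0 and 0 kb in E12.5, 44.2 and 48.8 kb in E14.5, 77.2 and 48.0 kb in ISC and 65.0 and 36.4 kb in AE. In the block 29.6 kb, in 8 runs, was covered in all 6 later libraries.

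The longest of these runs, chr13:72426801-72435000 (8.2 kb), lay in islands with folds of 1.70 and 2.10 in E14.5, 2.18 and 1.69 in ISC, with 1.28 and 1.24 in AE. The island over it held 476 and 448 ChIP reads in E14.5, 790 and 263 in ISC, with 530 and 165 in AE, against 301 and 373 control reads in E14.5, 462 and 216 in ISC, with 284 and 153 in AE. The nearest island at E12.5 was 314.8 kb to the left in replicate 1 and 237.6 kb to the right in replicate 2. Both replicates of each later population thus held the run, in AE at folds below the list medians of 1.44 and 1.52. A second run, chr13:72474001-72480800 (6.8 kb), had folds of 1.75 and 2.27 in E14.5, 2.64 and 2.06 in ISC, with 1.78 and 1.88 in AE.

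The pattern of the block, covered in all 6 later libraries and in neither E12.5 library, was likewise chosen after the data were seen, and its shares are a description. Over the whole chromosome 13 cluster it held for 36 kb in 11 stretches, 29.6 kb of it in the block, or 4.95% of the called length, where 0.518% of that of the genome had it. On chromosome 8 it was 3.4 kb in 1 stretch, chr8:94489601-94493000, or 0.556%. At equal covered length it held for 22.6 kb, or 5.22%, on chromosome 13 and 0 kb on chromosome 8, against 0.516% over the genome. With islands of an FDR of 1e-10 or less the chromosome 13 length was 10.6 kb, and with islands of a fold of at least 1.5 it was 12.2 kb.

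**Figure D4:**
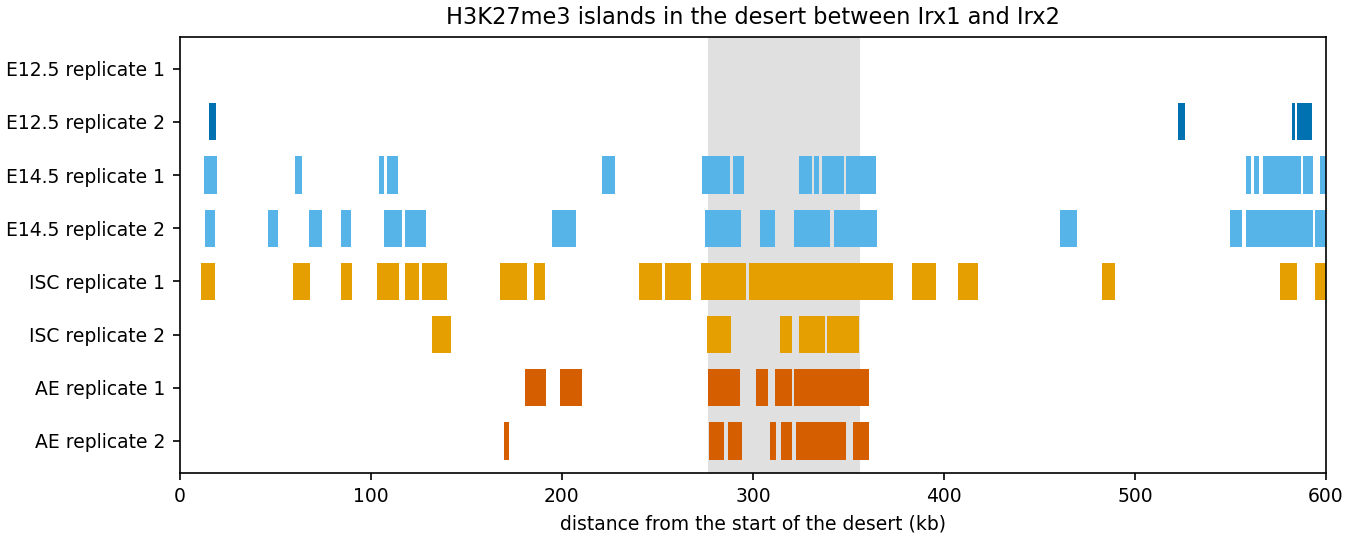
H3K27me3 islands in the Irx1 to Irx2 desert as bars on distance from the start of the desert in kb, with 1 row per library and a grey band over the 78.6 kb block. The band is empty in both E12.5 rows and holds 44.2 to 77.2 kb of islands in the 6 other rows.

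With the full lists the step to adult stem cells had no common direction. On chromosome 8 islands covered 315.9 ± 268 kb in ISC and 230.6 ± 73.8 kb in E14.5 (SD, n = 2 each), a difference of 85.3 kb with overlapping values, and without ISC replicate 1 the difference was -104.4 kb. On chromosome 13 they covered 297.2 ± 202 kb in ISC and 375.7 ± 66.9 kb in E14.5, a difference of -78.5 kb, again with overlap, and without ISC replicate 2 it was 64.1 kb. At equal covered length both clusters held less in ISC, without overlap. On chromosome 8 ISC held 128 and 126.2 kb against 157.2 and 164.8 kb in E14.5, a difference of -33.9 kb. On chromosome 13 ISC held 200.6 and 154.6 kb against 268 and 259.2 kb in E14.5, a difference of -86 kb. Only the Irx1 window was lower in both ISC than in both E14.5 libraries (10.0% of all 100 kb windows), and none was higher (13.6%). Lost length, covered in both E14.5 and neither ISC library, was 71.2 kb on chromosome 13 (10.4% of the called length) and 9.8 kb on chromosome 8 (1.66%), against 4.14% over the genome. The low chromosome 8 value depended on the extent of the lists: lists of equal covered length gave 46.8 kb (15.3%) there and 71.6 kb (18.7%) on chromosome 13, against 11.3% over the genome. Gained length was 22.8 kb (3.32%) on chromosome 13 and 13.2 kb (2.24%) on chromosome 8, against 5.97% over the genome, and with lists of equal covered length 6.4 kb (1.67%) on chromosome 13 and 24.2 kb (7.89%) on chromosome 8, against 6.83%.

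Most of the loss on chromosome 13 fell in the deserts, with 41.4 kb between Irx2 and Irx4 and 20.6 kb between Irx1 and Irx2. These deserts, of 500 and 600 kb, also make up most of the 1340 kb region, so this does not show a concentration in them. The order of these deserts turned round at equal covered length, with 25.6 kb between Irx2 and Irx4 and 34.8 kb between Irx1 and Irx2. The longest lost stretches were chr13:73029801-73039400 (9.6 kb) and chr13:73129001-73137800 (8.8 kb) between Irx2 and Irx4 and chr13:72717201-72725800 (8.6 kb) between Irx1 and Irx2. All 3 were also uncovered in both AE libraries. On chromosome 8 the longest was chr8:94678201-94681800 (3.6 kb) between Irx3 and Irx5, followed by chr8:94901801-94903200 and chr8:95207201-95208600 (1.4 kb each) at Irx5 and Irx6. The longest gained stretches were chr13:72281801-72290000 (8.2 kb), chr13:73343401-73350600 (7.2 kb) and chr13:72464001-72470400 (6.4 kb) on chromosome 13. On chromosome 8 they were chr8:94394801-94399400 (4.6 kb), chr8:94827601-94831400 (3.8 kb) and chr8:94334201-94335400 (1.2 kb). Leaving out 1 library moved the lost length to as much as 178.0 kb on chromosome 13, without E14.5 replicate 1, and 76.0 kb on chromosome 8, without ISC replicate 1. The gained length reached 185.0 kb on chromosome 13 and 265.4 kb on chromosome 8 without ISC replicate 2.

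From stem cells to enterocytes little length was gained by both AE libraries in either cluster. Gained length was 0.4 kb of 486 kb called on chromosome 13 (0.0823%) and 0 of 529.4 kb on chromosome 8, against 0.921% over the genome. At equal covered length it was 0 kb in both clusters, against 4.25%. With the full lists and without ISC replicate 1, gained length was 23.4 kb on chromosome 13 and 5.4 kb on chromosome 8. Without AE replicate 2 it was 21.8 kb and 3.2 kb. Lost length was 29.2 kb (5.52%) on chromosome 8 and 20.2 kb (4.16%) on chromosome 13, against 4.19% over the genome. Lists of equal covered length gave 6.2 kb (3.17%) and 3.6 kb (1.34%), against 3.14%. Islands covered 103.2 ± 23.5 kb in AE and 315.9 ± 268 kb in ISC on chromosome 8 (SD, n = 2 each), a difference of -212.7 kb without overlap, and 163.6 ± 19.8 kb in AE and 297.2 ± 202 kb in ISC on chromosome 13, a difference of -133.6 kb with overlap. With the full lists both differences rested on ISC replicate 1: without it they were -23.0 kb on chromosome 8 and 9.0 kb on chromosome 13. At equal covered length the differences were -63.3 kb on chromosome 8 and -49.9 kb on chromosome 13. Both AE libraries then lay below both ISC libraries in each cluster, on chromosome 13 with 153.6 kb against 154.6 kb for the nearest pair.

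The longest stretches lost in enterocytes were chr8:94585601-94590800 (5.2 kb), chr8:94547801-94552000 (4.2 kb) and chr8:94827601-94831400 (3.8 kb) on chromosome 8. On chromosome 13 they were chr13:72281801-72290000 (8.2 kb), chr13:73343201-73350600 (7.4 kb) and chr13:72107201-72110200 (3.0 kb), the last directly to the right of the stretch shared at Irx1. The first of these chromosome 13 stretches was covered in both ISC libraries and in no other library. Only the Irx6 window was lower in both AE than in both ISC libraries (10.5% of all 100 kb windows), and none was higher (2.56%). Leaving out 1 library gave lost lengths of up to 360.6 kb on chromosome 8 and 269.4 kb on chromosome 13, both without ISC replicate 2.

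Adult and embryonic libraries were not shown to differ in total covered length. Islands covered 209.55 ± 198 kb of the chromosome 8 cluster in adult and 165.3 ± 90.0 kb in embryonic libraries (SD, n = 4 each), a difference of 44.25 kb with an exact two-sided permutation p of 0.83 over 35 splits. On chromosome 13 they covered 230.4 ± 140 kb in adult and 239.85 ± 162 kb in embryonic libraries, a difference of -9.45 kb with an exact permutation p of 1. The smallest p this design allows is 0.0286. On chromosome 8 the difference was -54.4 kb without ISC replicate 1, and on chromosome 13 its sign changed with 5 of the 8 libraries left out in turn. No gene window had all adult libraries above all embryonic libraries (4.81% of all 100 kb windows) or all below them (1.83%). Leaving out E14.5 replicate 2 gave 2 such windows and leaving out ISC replicate 1 gave 1.

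Length covered in all 4 adult and in no embryonic library was 5.6 kb on chromosome 13 (0.770% of the called length) and 4.6 kb on chromosome 8 (0.752%), against 1.20% over the genome. Each was 1 stretch in a desert. chr13:72464801-72470400, inside the block between Irx1 and Irx2, lay in islands with folds of 2.64 and 1.65 in ISC, with 1.45 and 1.40 in AE. chr8:94394801-94399400, between Irx3 and Irx5, lay in islands with folds of 1.82 and 1.52 in ISC, with 1.15 and 1.39 in AE. In neither cluster was any length held by the 4 embryonic libraries and absent from the adult ones, against 0.380% over the genome.

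Replicates shared more of their islands in both clusters than over the genome in each population, by smaller margins on chromosome 8. The overlap of replicates as a Jaccard index (shared length divided by the joint length) was 0.423 on chromosome 13 and 0.248 on chromosome 8 against 0.202 over the genome in E12.5, and 0.528 and 0.478 against 0.447 in E14.5. It was 0.300 and 0.206 against 0.198 in ISC and 0.643 and 0.371 against 0.346 in AE. The E14.5 replicates were thus the most alike on chromosome 8 and the AE replicates on chromosome 13. The control reads per kb of Irx islands lay between 18.0 and 21.9 in the 8 libraries, against 17.7 to 23.2 per kb over all autosomal islands.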

How the data were processed

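H3K27me3 ChIP-seq island lists of 8 libraries were used. The submitters' processing notes name SICER 1.1, Bowtie 1.1.2, SAMtools 1.2, bcl2fastq 1.8.4 and the build mm9; other settings are not given in the sources used here. The deposited lists have 8 columns without a header, read from their values as chromosome, start, end, raw ChIP read counts, raw control read counts, the authors' p-value, the authors' fold ratio of ChIP over control scaled by library size, and the authors' FDR (a q-value of at most 0.01). Replicates of a population were called separately against the same control.

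Islands were painted on their 200 bp grid with Python 3.11.15, numpy 2.4.6 and pandas 2.3.3, and covered length was the measure. The painting and the permutation test were checked on simulated lists. Adult (ISC, AE) minus embryonic (E14.5, E12.5) length was compared over the 35 splits of single libraries with an exact permutation test (two-sided), so its p-values do not extend to populations. Named stretches are the 3 longest of each kind; a fold beside a stretch is that of the island over it. The background is every 200 bp window called in any library compared, or every 100 kb window with an island in any library. Coordinates are 1-based. Alternatives were an FDR of 1e-10 or less, a fold of at least 1.5, equal covered length, each library left out, a replicate block, wider gene windows and 1 library in place of both. The clusters, windows and tests were chosen with earlier results of these data known.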

Additional observations from a re-analysis of the deposited data

Results flagged for a closer look

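Of 24 groups of 4 libraries examined, 7 held a library far from the 3 others by Dixon's criterion. Chance alone marks about 1 in 20 independent groups drawn from a single population. Each group here mixed populations (E12.5 with E14.5, or ISC with AE), and the groups shared libraries and regions. The 7 of 24 groups can therefore not be set against that rate. In 6 of the 7 the library was ISC replicate 1, whose list is the longest of the 8. Among the adult libraries it covered 505.6 kb of the chromosome 8 cluster against 86.6 to 126.2 kb in the others, and 439.8 kb of the chromosome 13 cluster against 149.6 to 177.6 kb. It covered 266 kb of the Irx3 to Irx5 desert against 22.4 to 60.6 kb, 87.4 kb of the Irx5 window against 25.0 to 31.4 kb, 38.6 kb of the Irx1 window against 18.6 to 20.4 kb and 41 kb of the Irx2 window against 20.8 to 23.2 kb. At equal covered length it held 128 kb of the chromosome 8 cluster, against 126.2 kb in ISC replicate 2. Among the embryonic libraries E14.5 replicate 2 covered 45 kb of the Irx3 window, against 16.8 to 21.0 kb in the others.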

How the results depend on the processing

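The adult minus embryonic difference on chromosome 8 turned to -31.7 kb at equal covered length (exact permutation p of 0.314). With 1 library left out it ranged from -54.4 to 85.2 kb (exact permutation p of 0.429 to 1) on chromosome 8 and from -79.2 to 51.6 kb (p of 0.457 to 0.971) on chromosome 13, and the count of gene windows without overlap from 0 to 2. The E14.5 minus E12.5 difference moved to 67.7 kb at equal covered length on chromosome 8, and to 175.9 kb with an FDR of 1e-10 or less and 166.2 kb at equal covered length on chromosome 13; with 1 library left out it kept its sign, at 78.4 to 182.8 kb and 224.4 to 319 kb. At equal covered length the ISC minus E14.5 difference was -33.9 kb on chromosome 8 and -86 kb on chromosome 13. With 1 library left out it ranged from -104.4 to 275 kb on chromosome 8 and from -221.1 to 64.1 kb on chromosome 13. At equal covered length the AE minus ISC difference was -63.3 kb on chromosome 8 and -49.9 kb on chromosome 13. With 1 library left out it ranged from -402.4 to -23.0 kb on chromosome 8 and from -276.2 to 9.0 kb on chromosome 13. The length covered in all 8 libraries on chromosome 13 was 26.4 kb with an FDR of 1e-10 or less and 13.6 kb with a fold of at least 1.5; without 1 library it was 29.8 to 31.4 kb on chromosome 8 and 45.0 to 50.6 kb on chromosome 13. Gained and lost length summed over the 3 steps was 111.4 kb on chromosome 8 and 265.8 kb on chromosome 13; counting either library of a population gave 961.6 and 1138.2 kb, and leaving out 1 library 122.4 to 698.4 and 278.4 to 677.4 kb. In checks added after the data were seen, gene windows with E14.5 above E12.5 numbered 3 of 6 at equal covered length and 5 to 6 without 1 library, and windows with an island in all libraries numbered 3 with a fold of at least 1.5. The length held by all 6 later and no E12.5 library, a pattern also chosen after the data were seen, was 36 kb on chromosome 13 and 10.6, 12.2 and 22.6 kb with an FDR of 1e-10 or less, a fold of at least 1.5 and equal covered length; on chromosome 8 it was 3.4 kb and 0 kb in each of these. Counting either library replaces the length shared by replicates with their joint length, and the other settings use fewer libraries or islands; beyond that the cause was not tested.

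The labels number replicates 1 and 2 in each population, and nothing in them ties equal numbers together. The deviations of replicate 1 from the population means correlated between populations at -0.297 to 0.193 over 13351 windows, so the numbers were not taken as a pairing. With a replicate block the adult minus embryonic differences were unchanged at 44.25 kb (exact permutation p of 0.833, smallest possible 0.0556) and -9.45 kb (p of 1). The unknown depth outside islands limits every length: an uncalled stretch may hold the mark below the limit of the caller.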
